A study of Mus musculus with 8 samples.

Results

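The Adgre genes of the mouse encode adhesion G protein-coupled receptors of leukocytes, and 3 of them, Adgre1, Adgre4 and Adgre5, are described here in the Gr1hi (Ly-6chi) and Gr1lo (Ly-6clo) subsets of monocytes. Members were all probe sets whose platform annotation gave exactly one of these symbols, whatever their values. This rule found 4 of the 45037 probe sets that are not array controls: 1451161_a_at for Adgre1, 1424998_at and 1451563_at for Adgre4, and 1418394_a_at for Adgre5. Both subsets came from C57Bl/6 mice 12 weeks old. No genetic change, sex or treatment is given for either group. For each sort, leukocytes of 5 animals were pooled, and 4 sorts gave 4 samples of each subset, each hybridised to 1 Affymetrix 3' expression array. A sample is therefore a pool, and differences between single animals cannot be seen.

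Adhesion receptors of this family join a long outer region, built of EGF-like repeats and a stalk, to a membrane-spanning receptor part that can signal through G proteins. The outer region is usually cut from the membrane part at a site near the membrane, and the cut pieces stay bound to each other until a ligand or a pulling force separates them. Adgre1 encodes F4/80, the antigen by which mouse macrophages are most often recognised. Adgre4, also called Emr4 or FIRE, is found on myeloid cells of the mouse, and its human counterpart is a pseudogene. Adgre5 encodes CD97, which most leukocytes carry and which binds the complement regulator CD55, integrins and Thy1.

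Of the 3 genes, the reference table of promoter windows held only Adgre4, and its window is shown for that reason. Adgre4 was also the member whose level differed most between the subsets. The window spans 250 bases before to 50 bases after the annotated start on the plus strand of GRCm38.p6 (chr17:55749734-55750033), from RefSeq, and is read 5′ to 3′. The capitals mark its single match, on the minus strand, to GAGGAAGT, the ETS core with the flank that the myeloid factor PU.1 is known to prefer.
Adgre4: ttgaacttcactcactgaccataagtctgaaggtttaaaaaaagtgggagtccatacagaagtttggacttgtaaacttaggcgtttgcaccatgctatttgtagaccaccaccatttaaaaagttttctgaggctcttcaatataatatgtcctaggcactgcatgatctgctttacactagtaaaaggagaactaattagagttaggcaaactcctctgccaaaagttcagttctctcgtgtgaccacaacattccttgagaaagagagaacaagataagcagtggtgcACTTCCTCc
The match begins 42 bases past the start, and 3.2% of 32851 windows of this length hold these letters on either strand. The shorter core GGAA occurs 2 times in the window, once inside that match, and in 96.0% of all windows. Neither AAAGGTCA, the site that NR4A receptors bind as monomers, nor the letters TATAAA was found in this window, and they occur in 1.51% and 13.6% of all windows. CACCC, the box of Krüppel-like factors, was not found either and occurs in 57.5% of all windows. These matches describe letters and are not evidence of binding.

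All 4 Adgre probe sets were higher in Gr1lo than in Gr1hi monocytes, and for none did the values of the subsets overlap. The difference was large for Adgre4, 2.47-fold and 3.46-fold on its 2 probe sets. It was small for Adgre5 (1.29-fold) and Adgre1 (1.19-fold). All 4 passed limma's test at a Benjamini-Hochberg adjusted p under 0.05. That test called 31.1% of the 22831 probe sets tested, 15.2% higher in Gr1lo and 15.9% higher in Gr1hi. The subsets did not overlap for 31.8%, with Gr1lo above for 15.4%, so being called or not overlapping does not by itself set a probe set apart. A call at 2-fold or more toward Gr1lo, as on both Adgre4 probe sets, was made for 1.65%. Signed differences are log2 intensity in Gr1lo minus Gr1hi, and testing required a signal above the table median, an intensity of 81.9 or 6.36 in log2, in 4 or more arrays.

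Adgre4 showed the widest separation. On probe set 1451563_at, the brighter one, the log2 intensities of Gr1hi replicates 1 to 4 were 11.78, 11.65, 11.76 and 12.05. Those of Gr1lo replicates 1 to 4 were 13.29, 13.00, 13.13 and 13.03. Every Gr1lo array thus lay above every Gr1hi array, and the lowest Gr1lo array was 1.94-fold above the highest Gr1hi array. The means were 11.81 ± 0.17 and 13.12 ± 0.13 (SD, n = 4 each), a difference of 1.31 (SE 0.09, 95% interval 1.10 to 1.51, limma adjusted p = 1.1e-06). Of all tested probe sets, 97.9% differed by less than this in either direction.

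The other Adgre4 probe set, 1424998_at, gave a larger difference. Its log2 intensities in Gr1hi replicates 1 to 4 were 10.94, 10.86, 11.19 and 11.65. In Gr1lo replicates 1 to 4 they were 12.91, 12.91, 13.06 and 12.92. The Gr1lo arrays lay close together, within 0.15, while the Gr1hi arrays spread over 0.79 with replicate 4 at the top. The means were 11.16 ± 0.36 and 12.95 ± 0.07 (SD, n = 4 each), a difference of 1.79 (SE 0.14, 95% interval 1.48 to 2.10, limma adjusted p = 2.3e-06). The interval runs from 2.79-fold to 4.30-fold, and 99.0% of tested probe sets differed by less.

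Both Adgre4 probe sets are annotated to the same transcript record, yet they did not give the same size of change. The difference on 1424998_at exceeded that on 1451563_at by 0.48, and an exact permutation test of this excess over 70 orders (two-sided) gave p = 0.0286, the smallest that 4 arrays against 4 can give. The direction was the same on both. Among the 4 Gr1hi arrays their order was nearly shared, with replicate 4 highest and replicate 2 lowest on each. Among the Gr1lo arrays the order was not shared, since replicate 1 was highest on 1451563_at and at 12.91, no higher than the lowest of the others, on 1424998_at.

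**Figure D1:**
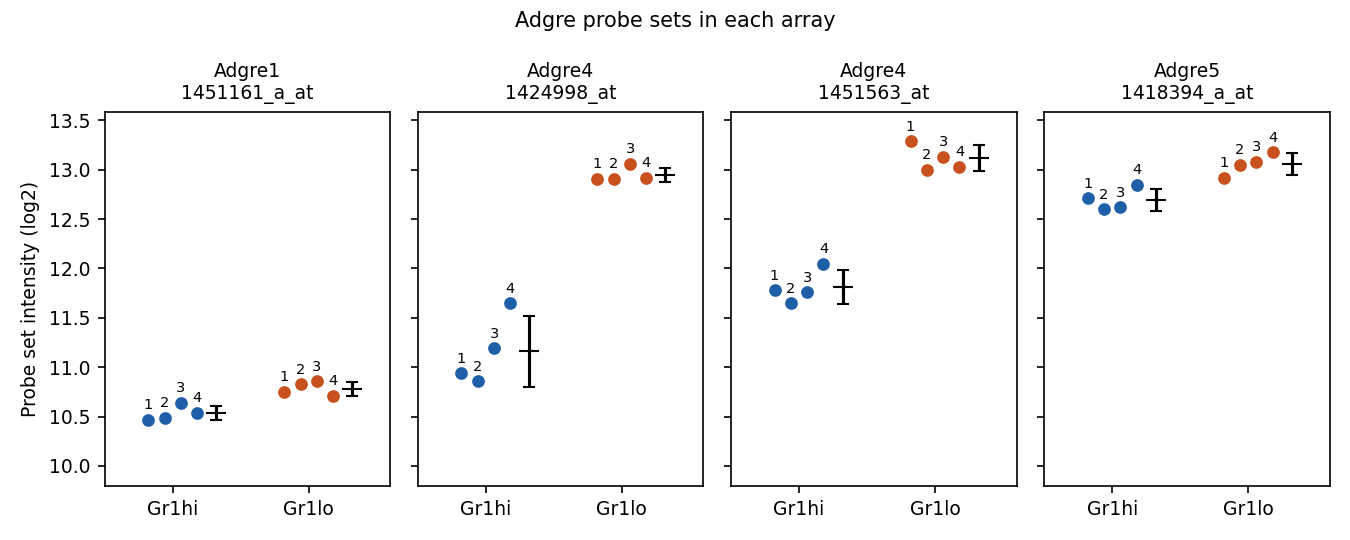
Log2 intensity of each Adgre probe set in the 4 Gr1hi (blue) and 4 Gr1lo (orange) arrays; numbers are replicates, and the bar beside each group is its mean ± SD. For Adgre4 the groups are well apart, with the Gr1hi arrays up to 11.65 and 12.05 and the Gr1lo arrays from 12.91 and 13.00, while for Adgre1 and Adgre5 the groups nearly touch.

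**Figure D2:**
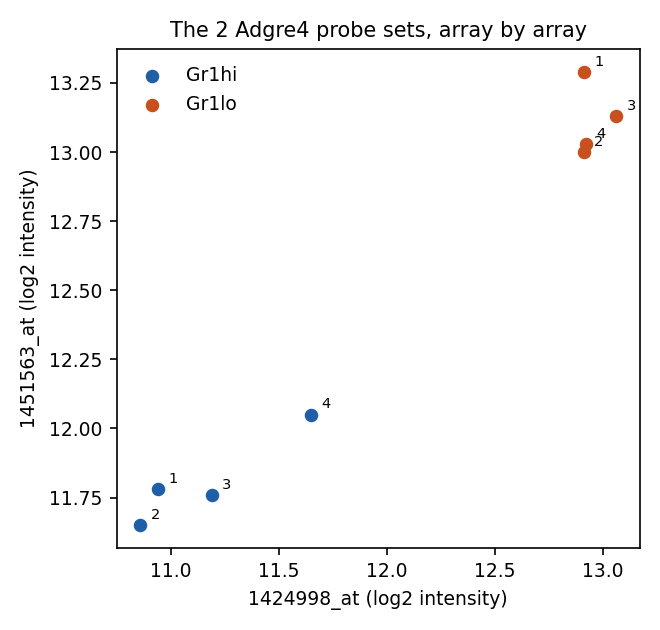
Log2 intensity of Adgre4 on probe set 1451563_at (vertical axis) against 1424998_at (horizontal axis), 1 point per array with its replicate number. Gr1hi replicate 4 is the Gr1hi array nearest to the Gr1lo arrays on both probe sets, at 11.65 and 12.05.

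Adgre5 was bright in both subsets and moderately higher in Gr1lo. Its log2 intensities in Gr1hi replicates 1 to 4 were 12.71, 12.60, 12.62 and 12.85. In Gr1lo replicates 1 to 4 they were 12.92, 13.05, 13.08 and 13.18. The groups did not overlap, but the gap was narrow, with Gr1lo replicate 1 only 1.05-fold above Gr1hi replicate 4. The means were 12.69 ± 0.11 and 13.06 ± 0.11 (SD, n = 4 each), a difference of 0.36 (SE 0.08, 95% interval 0.19 to 0.54, limma adjusted p = 0.0039). Of all tested probe sets, 80.9% differed by less.

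Adgre1, the F4/80 gene, differed least. Its log2 intensities in Gr1hi replicates 1 to 4 were 10.47, 10.49, 10.64 and 10.54. In Gr1lo replicates 1 to 4 they were 10.75, 10.83, 10.86 and 10.71. Here too no Gr1lo array reached down to a Gr1hi array, though Gr1lo replicate 4 lay only 1.05-fold above Gr1hi replicate 3. The means were 10.54 ± 0.07 and 10.78 ± 0.07 (SD, n = 4 each), a difference of 0.25 (SE 0.06, 95% interval 0.11 to 0.39, limma adjusted p = 0.012), which would not pass a threshold of 0.01. Its size was ordinary, since 70.4% of tested probe sets differed by less. In linear terms the interval runs from 1.08-fold to 1.31-fold. The 8 arrays lay 17.3-fold to 22.6-fold above the table median, so F4/80 transcript was well above that level in the Gr1hi cells as well.

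**Figure D3:**
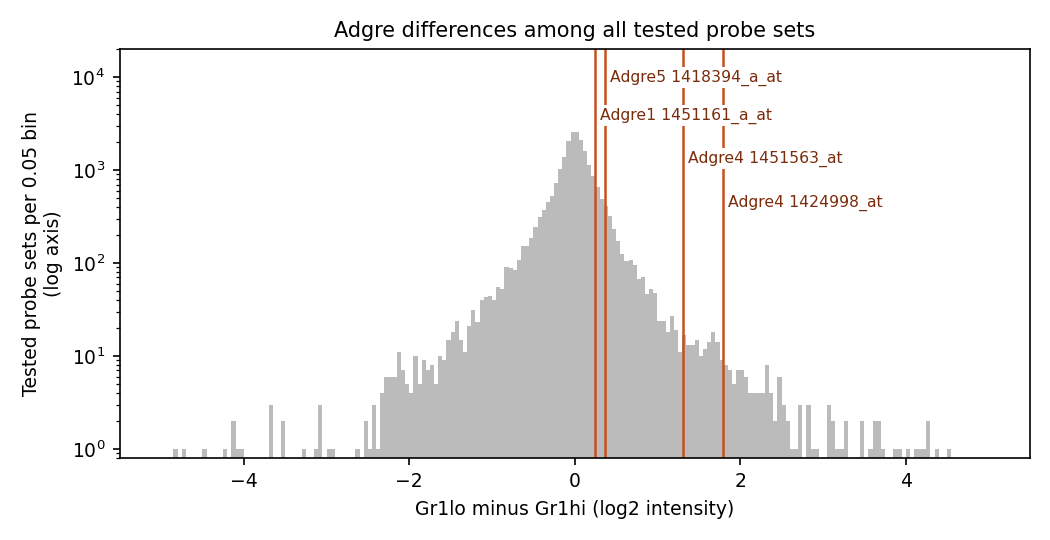
Number of tested probe sets (log axis) by their Gr1lo minus Gr1hi difference in log2 intensity, in bins of 0.05, with the 4 Adgre probe sets as vertical lines. The Adgre1 and Adgre5 lines, at 0.25 and 0.36, stand on the flank of the central peak, and the Adgre4 lines, at 1.31 and 1.79, stand in the right tail.

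Whether the 3 genes changed by unequal amounts was tested on their within-array log2 differences, with the brighter probe set standing for Adgre4. The Adgre4 change exceeded that of Adgre1 by 1.06, and that of Adgre5 by 0.94. For each, p = 0.0286 in the two-sided exact permutation test, the smallest possible, and 0.0429 after Benjamini-Hochberg adjustment over 3 pairs. That test takes the arrays as unpaired. In a sign-flip test over the 4 numbered pairs, which cannot go below p = 0.125, neither excess passed (adjusted exact p = 0.188 for each). The Adgre5 change exceeded that of Adgre1 by 0.11, which did not pass (exact permutation p = 0.371, adjusted p = 0.371). Because the probe sets differ in their response, levels of different genes were not compared. The 2 probe sets of Adgre4 itself differed in change by 0.48 with the same exact p of 0.0286. The test therefore cannot tell unequal change of 2 genes from unequal response of their probe sets.

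Gr1hi replicate 4 was the highest Gr1hi array for both Adgre4 probe sets and for Adgre5, but not for Adgre1, where replicate 3 was highest. Without Gr1hi replicate 4 the Adgre4 differences were 1.39 on 1451563_at and 1.95 on 1424998_at, and that of Adgre5 was 0.41. This array was also the highest of its group for 32.6% of the 374 other probe sets called at least 2-fold higher in Gr1lo, and replicate 1 for 33.4%. It was the lowest of its group for 43.1% of the 425 called at least 2-fold higher in Gr1hi. Of the 8 monocyte markers called between the subsets, it was the Gr1hi array nearest to the Gr1lo side for 3 (Csf1r, Fcgr1 and Itgal), as was replicate 1 for 3 others. Itgal, an integrin chain higher in Gr1lo, stood at 12.02 in it and at 11.64 to 11.91 in the other Gr1hi arrays. Fcgr1, an Fc receptor higher in Gr1hi, stood at 10.58 in it and at 10.83 to 11.01 in the others. The part of these values in the Adgre results was not tested.

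The samples carried monocyte transcripts. All 10 monocyte markers, among them Csf1r and Lyz2, exceeded the table median in all 8 arrays. Their summed intensity was 58330 to 60530 in Gr1hi and 64200 to 66460 in Gr1lo. Ccr2, known for the Gr1hi subset, was 3.59-fold higher there, and Spn, the sialophorin CD43 that marks Gr1lo monocytes, was 3.85-fold higher in Gr1lo. Of the 10 markers, 5 were called higher in Gr1lo and 3 higher in Gr1hi. Itgam and Cx3cr1 were not called on their brightest probe sets, and their subset values overlapped. For Cx3cr1, 1 of the 2 tested probe sets was called. Eosinophils are known to carry F4/80 too, and all 5 of their measured markers (Siglecf, Ccr3, Il5ra, Prg2 and Epx) stayed below the table median in every array, with sums of 209 to 221 in Gr1hi and 208 to 228 in Gr1lo. Of 8 markers of tissue macrophages, Timd4, Vsig4, Mertk and Cd163 were below it in every array, and 2 (Siglec1 and Vcam1) were above it in all 8. These 2 were not called on their brightest probe sets, but 1 of the 2 tested Siglec1 probe sets was called. The sums of the 8 markers overlapped (502 to 580 and 519 to 601). Clec4f, a lectin of Kupffer cells, was called higher in Gr1lo at a level near the table median (6.26 and 6.62, limma adjusted p = 0.027).

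Marker sums of 3 other cell types moved with the subset. Those of 5 NK cell genes were 652 to 684 in Gr1hi and 745 to 900 in Gr1lo, with Eomes below the table median throughout. Of these genes only Gzma, a granule protease, was called (intensity 140 to 204 and 259 to 377, limma adjusted p = 0.0019), while Klrk1 differed by 0.07 (adjusted p = 0.71) and the other 3 were too dim to be tested. Those of 5 dendritic cell genes were 1133 to 1291 and 1366 to 1863, with Xcr1 below it throughout. That gap came from the lectin gene Cd209a (intensity 466 to 617 and 879 to 1284), whereas the growth factor receptor gene Flt3 was 1.46-fold higher in Gr1hi (limma adjusted p = 3.3e-04) and Zbtb46 and Siglech were not called. Those of 7 neutrophil genes were 1703 to 2155 and 566 to 637, with Cxcr2 below it throughout and most of the gap from Mmp8 (10.40 and 6.28). Sums for T cells (616 to 691 and 607 to 756), B cells (643 to 1072 and 456 to 737), platelets (1591 to 4017 and 1847 to 5210) and red cells (870 to 2976 and 939 to 4456) overlapped. Of the 4 B cell genes, however, Ms4a1 was 2.20-fold and Cd79a 1.78-fold higher in Gr1hi (limma adjusted p = 0.0050 and 0.035), although the values of the subsets overlapped. The sums for platelets, red cells, B cells, NK cells and dendritic cells were highest in replicate 1 of each subset. Without both of these arrays the differences were 1.24 for Adgre4, 0.41 for Adgre5 and 0.24 for Adgre1 (limma adjusted p = 3.6e-05, 0.0072 and 0.048). The part of other cells in the Adgre differences was not tested. In sorted pools, a smaller number of cells of a kind and less RNA per cell cannot be told apart.

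Most other adhesion receptors of this superfamily were dim. Of 27 listed genes, 22 had a probe set with 1 symbol and only 5 passed the filter, against all 3 Adgre genes. Of these 5, Celsr3, a cadherin-type receptor known from planar cell polarity, was called, and it went the other way: it stood at 7.16 ± 0.08 in Gr1hi and 6.73 ± 0.15 in Gr1lo (SD, n = 4 each), a difference of -0.43 (SE 0.08, limma adjusted p = 0.0018). Among all 11546 genes tested, 32.5% were called, 14.1% higher in Gr1lo and 18.5% higher in Gr1hi. The median difference of the 5 genes was -0.026, and that of all genes -0.012.

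The other 4 tested relatives were not called. Adgrb1, a receptor for phosphatidylserine on dying cells, stood at 7.29 ± 0.22 and 7.44 ± 0.08 (SD, n = 4 each; limma adjusted p = 0.33). Without Gr1hi replicate 3 it was called higher in Gr1lo, by 0.25 (adjusted p = 0.028). The latrophilins Adgrl1 and Adgrl2 differed by -0.01 (95% interval -0.20 to 0.18) and -0.03 (-0.21 to 0.14), and Adgrg1 by -0.03 (-0.23 to 0.18), and the sign of these 3 turned under other settings. Without the filter on dim signal Adgrv1 was called too, at 5.72 in Gr1hi and 6.24 in Gr1lo, as was Adgrl4 at 5.90 and 5.64, both below the table median.

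Of 7 genes for molecules that CD97 is known to bind, or their integrin chains, 5 were tested, 2 were called higher in Gr1lo and 1 higher in Gr1hi (60% of those tested, beside 32.5% of all genes). Itgb1, the beta chain shared by many matrix receptors, was 2.09-fold higher in Gr1lo (10.21 ± 0.10 and 11.28 ± 0.03, SD, n = 4 each; limma adjusted p = 3.6e-07). Itgav, the alpha chain of vitronectin receptors, was 1.74-fold higher (adjusted p = 3.7e-04). Itga5, which pairs with Itgb1 to bind fibronectin, was 1.33-fold higher in Gr1hi (7.11 and 6.70, adjusted p = 0.0041). The 2 chains of 1 receptor thus went opposite ways. Cd55 (5.56 and 5.23) and Cd55b (3.59 and 3.67), the genes of the best known ligand, lay below the table median in both subsets and were not tested, and Itgb3 (adjusted p = 0.079) and Thy1 (adjusted p = 0.74) were not called. The median difference of the 5 was 0.379, beside -0.012 for all genes.

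Among genes through which active receptors are known to signal or are switched off, Grk3, a receptor kinase, was 2.36-fold higher in Gr1lo (10.73 ± 0.18 and 11.97 ± 0.04, SD, n = 4 each; limma adjusted p = 7.2e-07). Its probe set can match several transcripts. Grk5 and Grk6, the other receptor kinases tested, were 1.26-fold and 1.14-fold higher in Gr1lo (adjusted p = 0.0051 and 0.038). All 3 kinases were thus called, against 1 of 8 G protein alpha genes and neither arrestin, beside 32.5% of all genes. Gna12 and Gna13, the G proteins most often tied to CD97, differed by -0.07 (95% interval -0.26 to 0.11) and 0.02 (-0.21 to 0.25) and were not called. Gnaq, a G protein that activates phospholipase C, was 1.89-fold higher in Gr1hi (7.93 ± 0.20 and 7.01 ± 0.41, SD, n = 4 each; adjusted p = 0.0017).

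**Figure D4:**
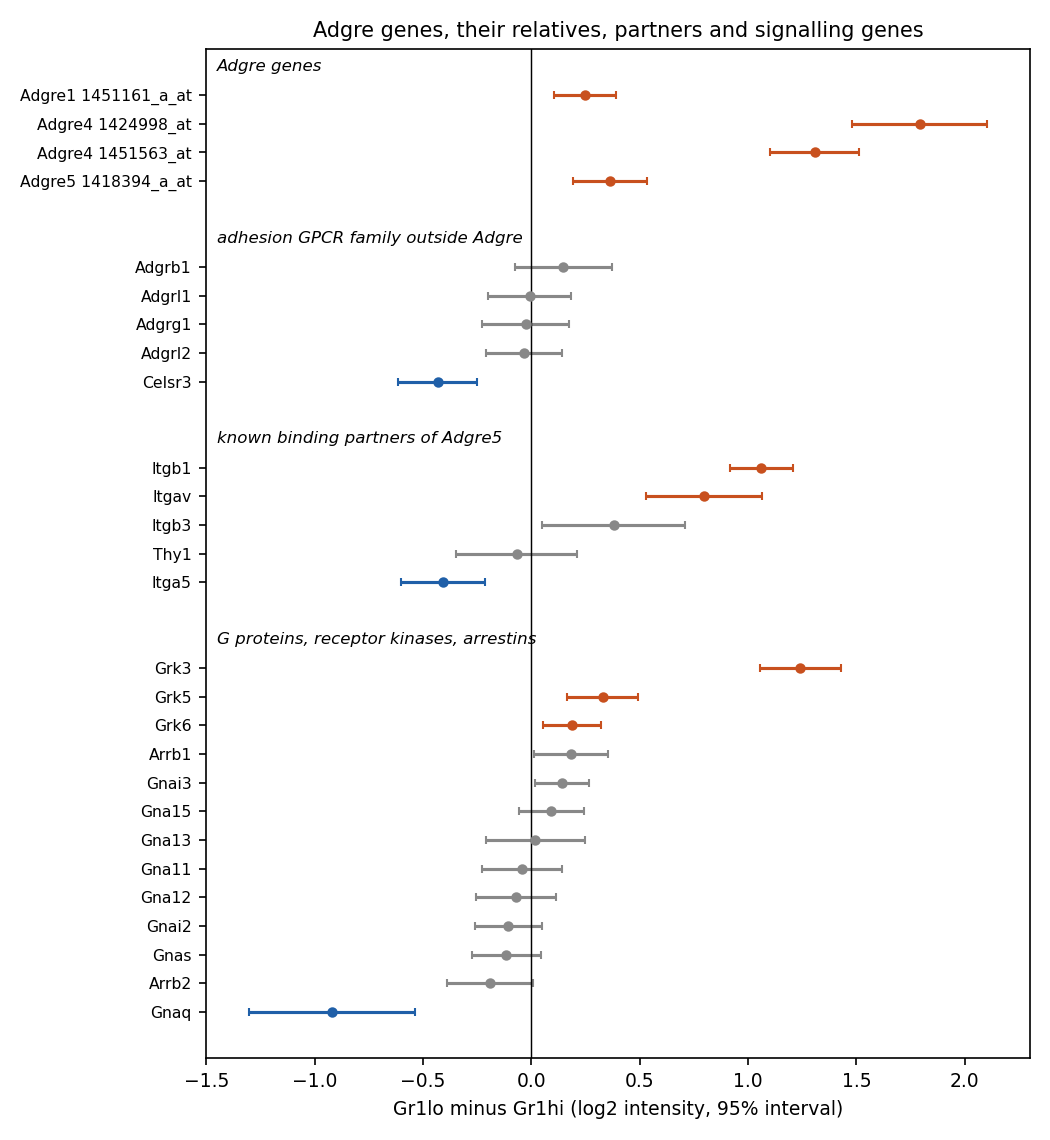
Gr1lo minus Gr1hi difference in log2 intensity with its 95% interval for the 4 Adgre probe sets, the tested genes of 2 lists, and G protein, receptor kinase and arrestin genes; orange was called higher in Gr1lo, blue higher in Gr1hi and grey not called (limma adjusted p, threshold 0.05). The 4 Adgre probe sets lie to the right of 0, while the other called genes lie on both sides, from Gnaq at -0.92 to Grk3 at 1.24.

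The genes whose pattern over the 8 arrays was most like that of each Adgre gene were found by Pearson's r of log2 intensity among 10966 genes. With 2 groups of 4 arrays this measure mostly reads the step between the subsets, so it is a description. For Adgre4 they were Nfkbiz, an inducible regulator of NF-kB (r = 0.995, 2.82-fold higher in Gr1lo), Klf4, a transcription factor of monocytes (r = 0.994, 2.02-fold), Ear3 of the eosinophil-associated ribonuclease family (r = 0.994, 4.25-fold) and Ryr1, a calcium release channel (r = 0.993, 3.88-fold). The Ear3 probe set can match related ribonuclease genes, so its value is uncertain. In all, 716 genes had r over 0.9 with Adgre4, against 266 for Adgre5 and 158 for Adgre1.

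For Adgre5 the closest genes were Slc8b1, the mitochondrial sodium and calcium exchanger (r = 0.988, difference 0.17), Calhm2 (r = 0.984, 0.36), Gramd4 (r = 0.979, 0.46) and the splicing factor Syf2 (r = 0.973, 0.19). For Adgre1 they were Psenen, a subunit of gamma-secretase (r = 0.976, difference 0.24), the RNA-binding protein Celf2 (r = 0.970, 0.19), Rapgef5 (r = 0.962, 0.55) and the cell cycle protein Cks1b (r = 0.961, 0.49). Of these genes, Slc8b1 and Celf2 were not called (limma adjusted p = 0.052 and 0.053). Syf2 was called (adjusted p = 0.027), but stayed so under only 10 of 19 alternatives. Between Adgre probe sets, r over the 8 arrays was 0.987 for the Adgre4 pair. Within subsets it rests on 4 arrays each: for that pair it was 0.942 in Gr1hi and 0.024 in Gr1lo. Adgre1 and Adgre5, with r = 0.761 over all arrays, had -0.142 in Gr1hi and -0.134 in Gr1lo.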

How the data were processed

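RNA of 8 sorted monocyte samples, 4 Gr1hi and 4 Gr1lo, was measured on 1 array each. Per the labels' protocols, the in vitro transcription ran for 64 h in place of 4 h, and so long an amplification can change ratios and the weight of the 3' end. The deposited values are linear intensities per probe set (8.64 to 27145), made comparable between arrays by the authors (array medians 80.6 to 83.1). GCRMA and MAS5 are named in the submitters' processing notes without role or order, so the form of normalization is not given in the sources used here. Arrays carry no read depth, and their number limits the precision (median SE of a difference 0.08).

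No pseudocount or further normalization was applied before log2. After 64 array controls were left out, 22831 of 45037 probe sets (50.7%) passed the filter of over 81.9 in at least 4 arrays. The test was that of limma 3.58.1 under R 4.3.3 (lmFit, eBayes, two-sided, no block). Its p-values were adjusted by Benjamini-Hochberg over the 22831 probe sets and called under 0.05. Intervals are at 95%, unadjusted. Each gene was represented by its tested probe set of 1 symbol with the highest mean. Of 34945 probe sets with 1 symbol, 34741 matched a GRCm38.p6 gene table by Entrez identifier. The fit was tested on simulated data, with 50 probe sets changed at each of 4 sizes. It recovered 18% of log2 changes of 0.25, 44% of 0.36, and 100% of 1.3 and of 1.8. Of its 143 calls, 12 were false. Far fewer probe sets were changed there than were called in the data, so recovery here may differ.

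Named were all Adgre probe sets, the tested adhesion receptors, up to 3 called members of each other list in each direction, and the 4 genes most like each Adgre gene by r (provisional symbols left out); other genes given were chosen after their values were seen. Part of the list of signalling genes, including genes that this rule names, is not reported here. Members and lists were chosen with earlier results of these data known. Alternatives were each array left out in turn, a replicate block, different filters, quantile normalization, a pseudocount of 32, other variance models, array weights, other probe set choices and a threshold of 0.01; the fit without replicate 1 of both subsets was added after seeing the data.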

Additional observations from a re-analysis of the deposited data

Results flagged for a closer look

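In groups of 4 arrays, a sample was picked out when its gap to the nearest other passed Dixon's critical share of the group's range, at the 95% level. This held for 4 of 64 groups checked, and chance gives about 1 in 20 (3.2 groups). Adgre4 probe set 1424998_at stood at 13.06 in Gr1lo replicate 3, above the 12.91 to 12.92 of the other Gr1lo arrays, a gap that is small beside the 1.79 between the subsets. Klf4 stood at 12.23 in Gr1lo replicate 1, above 12.09 to 12.11. Ryr1 stood at 10.37 in Gr1lo replicate 2, below 10.52 to 10.53. Gramd4 stood at 10.48 in Gr1lo replicate 1, below 10.59 to 10.61.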

How the results depend on the processing

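The differences of Adgre4 (1.24 to 1.55) and Adgre5 (0.32 to 0.41) kept their direction and stayed called under all 19 alternatives run for each, with adjusted p up to 3.6e-05 and 0.015. Adgre1 (0.22 to 0.28) did so under 18 of 19; at a threshold of 0.01 its difference of 0.25 (adjusted p = 0.012) was no longer called. Averaging both Adgre4 probe sets gave 1.55, and 1424998_at alone stayed called at 1.69 to 1.95 under the 18 alternatives that test it. The probe sets called numbered 4892 to 7471 over the alternatives, and 6130 to 6633 with 1 array left out.

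The main fit has no block, since same-numbered samples of the subsets deviated together in only 2 of 4 pairs. Their r was 0.273 and 0.34 for numbers 1 and 2, and -0.029 and -0.103 for 3 and 4. Not every sample correlated best with its own number. Gr1hi replicate 4 had r = 0.554 with Gr1lo replicate 3, and Gr1hi replicate 3 had r = 0.295 with Gr1lo replicate 4. The block and the numbered pairs below follow the replicate numbers, so a pairing with these crossed partners was not tested. With a replicate block, the fit called 7164 probe sets and kept the 3 Adgre calls (adjusted p = 0.019, 2.1e-06 and 0.0033 for Adgre1, Adgre4 and Adgre5). The sign-flip test over 4 numbered pairs cannot go below p = 0.125, so in it the excess of Adgre4 over Adgre1 (1.06) and over Adgre5 (0.94) had an adjusted exact p of 0.188. With 1 array left out, the count of called adhesion receptors outside the Adgre genes was 1 to 2, with 2 without Gr1hi replicate 3. Without the filter it was 3, because dim probe sets were then tested. The signs of uncalled relatives near 0 turned: with array weights Adgrg1 differed by 0.0078 and Adgrl1 by 0.031, and with averaged probe sets Adgrl1 by 0.014 and Adgrl2 by 0.0043. With 1 array left out they ranged from -0.11 to 0.017 (Adgrg1), -0.058 to 0.075 (Adgrl1) and -0.081 to 0.019 (Adgrl2). The number of arrays, 8, and their unstated normalization limit the precision.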

Other observations

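The genes that lie next to the Adgre genes on their chromosomes were chosen by position in a GRCm38.p6 gene table, 3 protein-coding genes on each side. Of 18 neighbours, 14 had a probe set, 9 were tested and 4 were called, 3 higher in Gr1lo and 1 higher in Gr1hi, beside 32.5% called among all genes. Pot1b, a telomere-binding protein and the nearest gene on one side of Adgre4, was 1.66-fold higher in Gr1lo (7.58 ± 0.20 and 8.31 ± 0.23, SD, n = 4 each; limma adjusted p = 7.3e-04). Beside Adgre5, the RNA helicase gene Ddx39a was 1.40-fold and the histone chaperone gene Asf1b 1.57-fold higher in Gr1lo. Beside Adgre1, Gpr108 was 1.32-fold higher in Gr1hi, against the direction of Adgre1. The nearest gene on the other side of Adgre5 is its relative Adgrl1, which was not called. The other tested neighbours differed by -0.26 to 0.02.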
